A study of Mus musculus with 9 samples.

Results

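The nuclear genes for the subunits of the mitochondrial respiratory chain were examined in injured tibialis anterior muscle of young and old mice. Members were chosen by symbol, with earlier results of these data known. They are the protein-coding genes of the count table whose symbol starts with Nduf (Ndufaf left out), Uqcr, Cox4 to Cox8 or Atp5, together with Sdha, Sdhb, Sdhc, Sdhd, Cyc1 and Cycs. The rule found 88 of the 54532 gene identifiers, under 87 symbols because Atp5o is listed under 2 identifiers. By complex these were 36 genes of complex I, 4 of complex II, 9 of complex III, 20 of complex IV, 18 of complex V and cytochrome c itself. Ndufa4 and Ndufa4l2 were counted with complex IV, where the Ndufa4 protein is found.

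The muscles of C57/BL6J mice were damaged with BaCl2 and then received 3 intramuscular injections of either PBS or recombinant METRNL (rMETRNL), a secreted protein that macrophages release after muscle damage. The groups were young PBS at 4 months of age, old PBS at 24 months and old rMETRNL at 24 months, with 3 RNA-seq libraries in each, and every mouse was injured, so that no group shows undamaged muscle. The paper states collection at day 8 from muscle, whereas the series states day 4 and the labels call the tissue a muscle cell suspension, and the dose is 0.1 ug in one place and 0.1 ng in another. The libraries are numbered as in the labels (young PBS 1 to 3, old PBS 2 to 4, old rMETRNL 1 to 3), which do not tie a library to an animal, so the p-values measure the spread between these libraries.

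The respiratory chain passes electrons from NADH, through complex I, and from succinate, through complex II, to complex III, then by the small carrier cytochrome c to complex IV, which reduces oxygen. Protons pumped on the way drive complex V, the ATP synthase. Skeletal muscle fibres are rich in mitochondria, and several complex IV subunits exist as a striated muscle form and a widely expressed form, encoded by separate genes. A few core subunits are encoded in the mitochondrial genome, so that the complexes need both genomes.

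Promoters of the members were read from a RefSeq table of GRCm38.p6 that runs from 250 bases before each start to 50 after it. Of the 87 symbols, 68 were matched. The letters GCGCNTGCG on either strand, the motif of the transcription factor NRF1, were found in 24 of these 68 (35.3%), beside 9.68% of 17492 protein-coding genes and 7.12% of all 27025 genes in the table. The YY1 motif AAGATGGCG was found in 7 (10.3%, beside 2.14% of protein-coding genes and 1.64% of all genes). The ETS factor motif ACCGGAAG was found in 6 (8.82%, beside 3.4% and 2.6%). The estrogen-related receptor motif TNAAGGTCA was found in 3 (4.41%, beside 1.19% and 1.43%). These motifs were also sought on both strands. A match is a description of the letters and does not show that a factor binds there.

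The next sequences show the NRF1 letters before the start of 4 members, from complex I, complex II, cytochrome c and complex V. They are printed 5′ to 3′ on the strand of the gene, with the match in capitals and 20 bases on each side, in coordinates of GRCm38.p6.
Ndufb4, chr16:37654418-37654466, - strand: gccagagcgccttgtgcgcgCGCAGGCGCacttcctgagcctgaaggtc
Sdha, chr13:74350309-74350357, - strand: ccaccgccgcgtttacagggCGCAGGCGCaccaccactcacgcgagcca
Cycs, chr6:50566602-50566650, - strand: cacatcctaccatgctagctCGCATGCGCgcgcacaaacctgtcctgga
Atp5h, chr11:115420031-115420079, - strand: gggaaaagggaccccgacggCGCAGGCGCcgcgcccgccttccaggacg
In Ndufb4, an accessory subunit of complex I, the match begins 78 bases before the start, and the same promoter holds further matches 190 and 21 bases before it. In Sdha, the flavoprotein of succinate dehydrogenase, the match shown begins 97 bases before the start. In complex III the letters were found in Uqcr11, from 5 bases before the start, and after the start in Uqcr10 and Uqcrc1.

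Promoters of complex IV genes are shown for Cox6a1 and Cox8a, both widely expressed forms, and for Cox8b, the striated muscle form paired with Cox8a, because these forms behaved differently across the libraries. Each is the 250 bases before the RefSeq start, with NRF1 letters in capitals.
Cox6a1, chr5:115348959-115349208, - strand: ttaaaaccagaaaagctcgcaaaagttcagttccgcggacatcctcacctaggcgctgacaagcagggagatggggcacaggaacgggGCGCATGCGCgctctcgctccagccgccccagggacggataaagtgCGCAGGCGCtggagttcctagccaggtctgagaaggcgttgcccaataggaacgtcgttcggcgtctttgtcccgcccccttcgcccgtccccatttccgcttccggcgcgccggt
Cox8a, chr19:7217617-7217866, - strand: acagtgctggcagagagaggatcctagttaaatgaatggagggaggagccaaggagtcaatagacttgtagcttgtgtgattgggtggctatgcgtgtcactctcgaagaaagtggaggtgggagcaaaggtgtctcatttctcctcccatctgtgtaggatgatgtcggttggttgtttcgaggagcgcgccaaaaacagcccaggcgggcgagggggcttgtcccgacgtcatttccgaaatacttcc
Cox8b, chr7:140900447-140900696, - strand: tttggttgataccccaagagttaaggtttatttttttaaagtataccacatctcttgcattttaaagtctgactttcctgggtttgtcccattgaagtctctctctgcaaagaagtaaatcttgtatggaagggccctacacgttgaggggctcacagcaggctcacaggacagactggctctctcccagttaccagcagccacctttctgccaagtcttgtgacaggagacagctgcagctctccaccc
Cox6a1 held 3 NRF1 matches, of which the pair at 162 and 161 bases before the start overlap on opposite strands, and its 250 bases were 62.8% G and C with 26 CG pairs. Cox8a held 11 CG pairs at 52.8% G and C. Cox8b held 1 CG pair at 47.2% G and C, and Cox7a1, the muscle form of another subunit, held 4 CG pairs at 51.2%. Cox7a2, the widely expressed form paired with Cox7a1, held 14 CG pairs at 54.8%. None of the 4 motifs was found in Cox8a, Cox8b, Cox7a1 or Cox7a2, and Cox6a2 was not matched to the table.

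Library totals ran from 16238700 to 22522560 counts, of which 2.12 to 3.26% fell on the members. The libraries labelled as muscle held high levels of mature fibre genes, with 13 markers such as Acta1, Ckm and Myh4 summing to between 92900 and 169378 CPM (counts scaled to library size by TMM). Old PBS libraries stood apart. Old PBS 3 had the lowest summed mature fibre markers and old PBS 4 the highest, while 8 markers of new fibres such as Myh3, Myh8 and Myog summed to 4629 CPM in old PBS 3, 568 in old PBS 4 and 1228 to 2187 in the other 7 libraries. All old PBS libraries also held transcripts of brain (Snap25 at 14.9, 5.47 and 25.6 CPM) and liver (Alb at 64.4, 22.2 and 1.57 CPM), with Snap25 at 0 counts in the other 6 libraries and Alb at no more than 0.16 CPM there. Their part in the results below was not tested, and the members' fold changes with the largest values, their medians and their counts of calls are given with and without old PBS 3 and old PBS 4. Other values use all libraries unless stated.

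Of the 88 members, 85 had counts. Cox7b2 and Cox8c, known from testis, and the second Atp5o identifier had 0 counts in every library, where the floor of 3 counts stands for 0.133 to 0.185 CPM. Levels below are FPKM, that is TMM-scaled CPM per kilobase of exon. The length is that of all annotated exons of a gene together, so the order of genes by FPKM depends on the annotation.

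Complex V and complex IV held the most abundant members. Atp5a1 and Atp5b, the alpha and beta subunits of the catalytic head of ATP synthase, had mean levels of 690 and 675 FPKM over the 9 libraries. In complex IV the muscle forms Cox8b and Cox6a2 stood at 696 and 650 FPKM, ahead of Cox4i1 at 531, which is the main form of a regulatory subunit. Complex III was led by Uqcr10 at 416 FPKM and complex II by Sdha at 227, and Cycs, cytochrome c, stood at 105. By complex, the median of the members' means was 101 FPKM for complex I, 199 for complex II, 261 for complex III, 187 for complex IV and 140 for complex V.

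**Figure D1:**
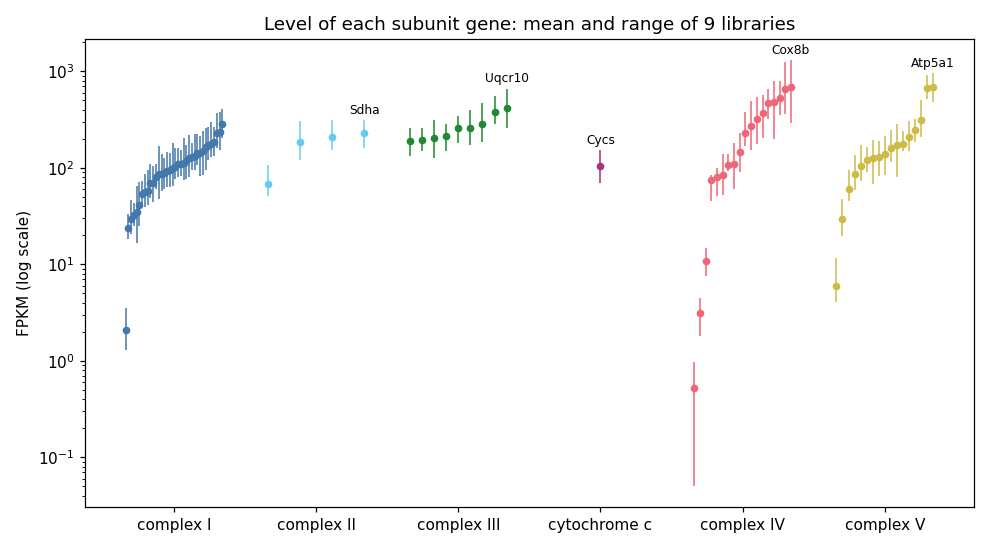
Level of each of the 85 members with counts, grouped by complex and sorted within it; points are means over 9 libraries in FPKM on a log axis and lines run from the lowest to the highest library. Means range from 0.516 FPKM to 696 FPKM, with Ndufb2, Ndufa4l2, Cox4i2, Cox6b2 and Atp5s far below the rest of their complex.

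The lowest members were Cox6b2, a testis form, at 0.516 FPKM, Ndufb2 at 2.1, Cox4i2, a form known from lung, at 3.15, Atp5s, named as a coupling factor of ATP synthase, at 5.99 and Ndufa4l2, a paralogue of Ndufa4 known as a hypoxia target, at 10.8. The level of Ndufb2, an accessory subunit of complex I, was divided by an exon length of 5628 bases against a median of 1587 for the members, and its counts ran from 150 to 346 per library. The gene listed as Ndufb1-ps held 7986 counts in all but is no protein-coding gene in the annotation and was left out by the rule.

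The members moved together across libraries, and the libraries of the old PBS group sat at both ends. In old PBS 4, 78 of 85 members (91.8%) had their highest level, beside 26.9% of 14178 genes with a mean of at least 1 CPM. In old PBS 3, 73 of 85 (85.9%) had their lowest level, beside 16.7% of all such genes. The members' summed level was 30955, 24623 and 22603 CPM in young PBS 1, 2 and 3, then 25683, 18228 and 39485 CPM in old PBS 2, 3 and 4, and 26856, 24444 and 25452 CPM in old rMETRNL 1, 2 and 3. The highest library exceeded the lowest by 2.17-fold, and both were old PBS, while the other 7 libraries lay between them.

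**Figure D2:**
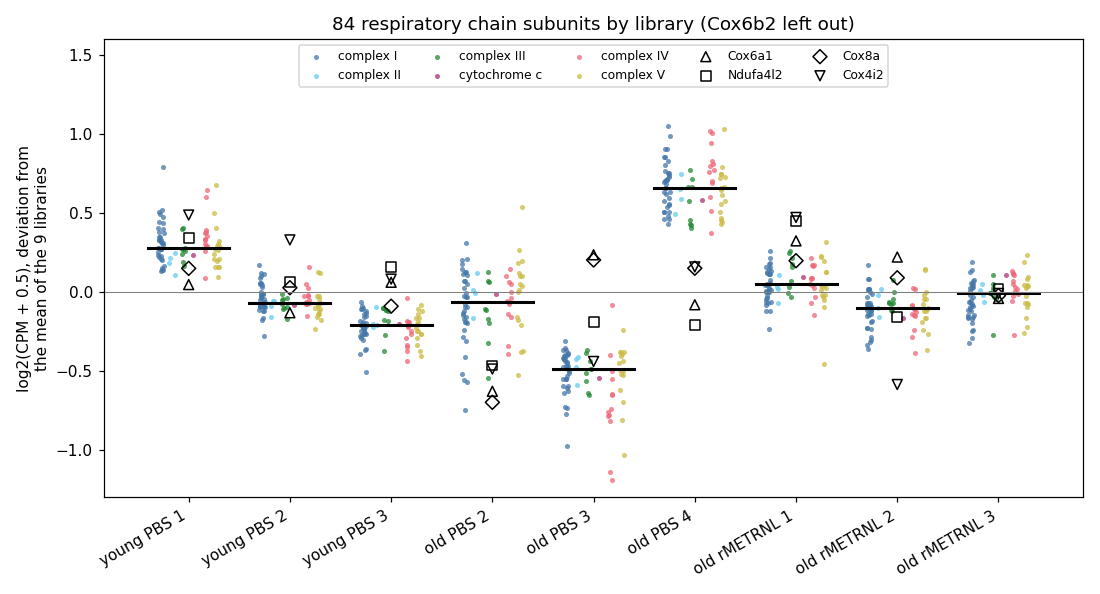
Deviation of 84 members from their mean over the 9 libraries, on the scale of log2(CPM + 0.5), by library and coloured by complex; black bars are medians and open symbols mark Cox6a1, Ndufa4l2, Cox8a and Cox4i2. All complexes sit high in old PBS 4 (median 0.66) and low in old PBS 3 (median -0.49). In old PBS 3, Cox6a1 and Cox8a lie above 0 (0.23 and 0.20), and Ndufa4l2 and Cox4i2 below it (-0.19 and -0.44). In old PBS 4 the open symbols lie between -0.21 and 0.16.

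Each complex took part in this spread. On the scale of log2(CPM + 0.5), with 0.5 CPM added before the logarithm, the median deviation from the mean of the 9 libraries in old PBS 4 was 0.69 for complex I, 0.62 for complex II, 0.58 for complex III, 0.69 for complex IV, 0.64 for complex V and 0.58 for cytochrome c. In old PBS 3 the same medians were -0.47, -0.45, -0.49, -0.60, -0.49 and -0.54, beside 0.01 for all genes. The numbers of members lowest in old PBS 3 were 32 of 36 in complex I, 4 of 4 in complex II, 8 of 9 in complex III, 12 of 18 in complex IV and 16 of 17 in complex V. Complex IV, with its tissue forms, thus held 6 of the 12 members that were lowest elsewhere.

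Spread within a group differed between groups. The median SD of a member over the 3 libraries, on the same log2 scale, was 0.27 in young PBS, 0.60 in old PBS and 0.13 in old rMETRNL, whereas that of all genes with a mean of at least 1 CPM was 0.18, 0.32 and 0.16. In terms of level, the highest library exceeded the lowest by a median of 1.43-fold in young PBS, 2.24-fold in old PBS and 1.2-fold in old rMETRNL. The difference between these spreads was not tested.

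Core subunits showed the pattern in every complex. Ndufv1, a core subunit of complex I that takes electrons from NADH, stood at 142, 117 and 118 FPKM in young PBS 1 to 3, at 126, 95.5 and 179.8 in old PBS 2 to 4 and at 137, 129 and 113 in old rMETRNL 1 to 3. Sdha stood at 241, 210.2 and 209 FPKM in young PBS, at 244, 161 and 315 in old PBS and at 227, 221 and 214 in old rMETRNL. In both genes the old rMETRNL libraries lay inside the range of old PBS.

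Uqcrfs1, the Rieske iron-sulfur protein of complex III, stood at 453, 348 and 329 FPKM in young PBS, at 347, 287 and 558 in old PBS and at 373, 357 and 376 in old rMETRNL. Cycs stood at 120.5, 96.7 and 89 FPKM in young PBS, at 102, 70.4 and 154 in old PBS and at 109.7, 91.6 and 110.3 in old rMETRNL. Again the old PBS libraries enclosed all others. Atp5a1 stood at 759, 638 and 624 FPKM in young PBS, at 769.8, 483 and 964 in old PBS and at 684, 645 and 645 in old rMETRNL. Cox5a, a structural subunit of complex IV, stood at 103, 80.1 and 68.7 FPKM in young PBS, at 51.9 in old PBS 3 and 139 in old PBS 4, and at 74 to 84.5 in old rMETRNL.

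Ndufs1, a core iron-sulfur subunit of complex I, ranged over the 9 libraries from 40.1 to 72.9 FPKM. Sdhb, the iron-sulfur subunit of complex II, ranged from 121 to 304 FPKM, Uqcrc1 and Cyc1, a core protein and the cytochrome c1 of complex III, from 133 to 255 and from 149.8 to 282, and Cox4i1 from 354 to 787. In all 5 genes the lowest value was in old PBS 3 and the highest in old PBS 4.

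Atp5g1, Atp5g2 and Atp5g3 encode the same mature protein of the rotating c ring of ATP synthase. Of their summed FPKM, Atp5g3 supplied between 57.9 and 66.5% in the 9 libraries, Atp5g1 between 20.2 and 24.8% and Atp5g2 between 13.3 and 18.6%. These shares depend on the exon lengths used, 2181 bases for Atp5g3, 4912 for Atp5g1 and 1675 for Atp5g2. In young PBS 1 the raw counts were 11989, 8487 and 1920. The order of the 3 genes was the same in every library. Old PBS 2 and old PBS 4 had the lowest shares of Atp5g3, at 57.9 and 58.2%, against 60.3 to 66.5% in the other 7.

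Most members tracked the common level, and a few complex IV genes did not. Over the 9 libraries, 67 of 85 members had a Pearson r of at least 0.9 with the median deviation of the members, and the median r between pairs of members was 0.90. These are descriptions over 9 points that share the same libraries. Members with r under 0.75 numbered 5, all of complex IV and named here after their values were seen: Cox6a1 at -0.17, Ndufa4l2 at 0.11, Cox6b2 at 0.14, Cox8a at 0.14 and Cox4i2 at 0.50. Cox6b2 had 1 to 20 counts per library, so its r rests on few reads.

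Cox6a1, the widely expressed form of subunit 6a, stood at 81.2, 71.7 and 82 FPKM in young PBS, at 50.6, 92.6 and 74.3 in old PBS 2, 3 and 4, and at 98.5, 91.7 and 76.4 in old rMETRNL. It was thus lowest in old PBS 2 and above the young PBS libraries in old PBS 3, where most members were lowest. Its muscle partner Cox6a2 stood at 753, 627 and 474 FPKM in young PBS, at 661, 363 and 1238 in old PBS and at 557, 557 and 619.7 in old rMETRNL.

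Cox8a, the widely expressed form of subunit 8, stood at 81.5, 74.8 and 68.9 FPKM in young PBS, at 45, 84.6 and 81.6 in old PBS and at 84.3, 78.2 and 72.3 in old rMETRNL. Cox8b, the muscle form, stood at 978, 718 and 525 FPKM in young PBS, at 665, 292 and 1305 in old PBS and at 665, 492 and 619.7 in old rMETRNL. Old PBS 3 was highest of all libraries for Cox8a and lowest for Cox8b. Cox8b ranged over 4.47-fold among the libraries and Cox8a over 1.88-fold.

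Cox7a1, the muscle form of subunit 7a, stood at 709, 470.0 and 441 FPKM in young PBS, at 357, 198 and 794 in old PBS and at 526, 414 and 449 in old rMETRNL. Cox7a2, its widely expressed form, stood at 182, 134 and 123 FPKM in young PBS, at 147, 89.6 and 229 in old PBS and at 145, 119 and 138 in old rMETRNL. Unlike Cox6a1 and Cox8a, Cox7a2 followed the common level. Cox7a2l, a related protein that takes part in the assembly of supercomplexes, had the narrowest range of the 85 members over the libraries, 1.48-fold from 93.7 to 138 FPKM.

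**Figure D3:**
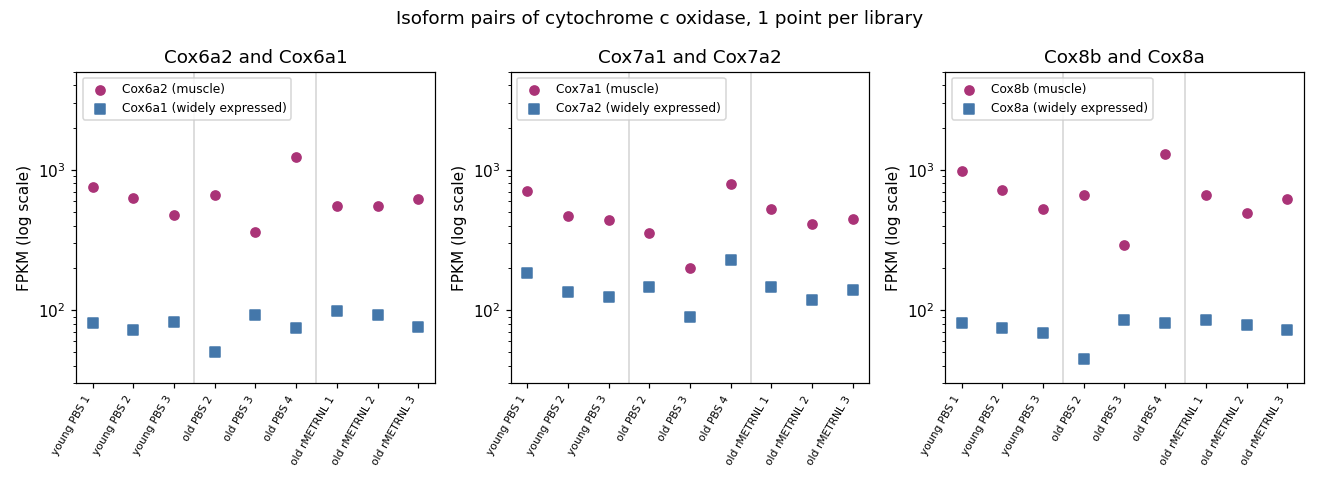
FPKM on a log axis of the striated muscle form (circles) and the widely expressed form (squares) of 3 complex IV subunits in each of the 9 libraries. The muscle form is higher in every library, the distance is smallest in old PBS 3, and Cox6a1 and Cox8a vary less than Cox6a2 and Cox8b.

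The ratio of muscle to widely expressed form does not depend on library size. Cox6a2 over Cox6a1 was 9.27, 8.74 and 5.78 in young PBS, 13.1, 3.92 and 16.7 in old PBS and 5.65, 6.08 and 8.11 in old rMETRNL. Cox8b over Cox8a was 12, 9.59 and 7.62 in young PBS, 14.8, 3.45 and 16 in old PBS and 7.89, 6.29 and 8.57 in old rMETRNL. For both pairs the old PBS group enclosed the ratios of all other libraries.

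Cox7a1 over Cox7a2 was 3.89, 3.50 and 3.58 in young PBS, 2.43, 2.21 and 3.46 in old PBS and 3.62, 3.49 and 3.24 in old rMETRNL. The old PBS ratios (mean 2.70 ± 0.67, SD, n = 3) all lay below the young PBS ratios (3.66 ± 0.20), the highest of them by a narrow margin, and the difference was -0.46 on the log2 scale with p = 0.1 in a two-sided exact permutation test, the smallest p that 3 against 3 can give. Adjusted over the 9 isoform tests by Benjamini-Hochberg it was 0.6. Of the other 8 tests, exact permutation p ran from 0.2 to 1, with adjusted p from 0.6 to 1. With 3 libraries against 3, none of the 9 tests could pass 0.05. Without old PBS 4 the difference in Cox7a1 over Cox7a2 was -0.65, and without old PBS 3 it was -0.33.

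The comparison of old PBS with young PBS asks how age changes the injured muscle. No member passed the test: of 15560 genes tested, 10 (0.0643%) passed edgeR's quasi-likelihood test at an adjusted p under 0.05, and 0 of 85 members did. DESeq2's Wald test also called 0 members. At an unadjusted p under 0.05 there was 1 member by edgeR, beside 5.91% of all genes tested. DESeq2 gave 1 member, beside 1302 of 28821 genes. These counts by edgeR were 5 members without old PBS 3, beside 3322 of 15884 genes, and 12 without old PBS 4, beside 871 of 16128. The median log2 fold change of the members was 0.09 with a median SE of 0.31, beside 0.01 for all genes, and 62 members had a positive and 23 a negative value. By complex the medians were 0.09 for complex I, 0.13 for complex II, 0.04 for complex III, 0.05 for complex IV and 0.13 for complex V.

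This median turned with the choice of libraries. Without old PBS 4 it was -0.27, with 3 members positive and 82 negative, and without old PBS 3 it was 0.31, with 78 positive and 7 negative. Without young PBS 3 it was -0.02, and with the other libraries left out one at a time it stayed between 0.04 and 0.24. In every one of these fits 0 members passed the adjusted threshold. All 5 complexes turned together: without old PBS 3 the medians of complexes I to V were 0.30, 0.36, 0.25, 0.31 and 0.35, and without old PBS 4 they were -0.26, -0.21, -0.33, -0.35 and -0.18.

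The largest falls were in Cox4i2, Ndufa4l2 and Atp5k, and the largest rises in Cox6b2, Atp5s and Atp5l, none of which passed the test. Ndufa4l2 stood at 13.6, 11.1 and 11.9 FPKM in young PBS and at 7.57, 9.27 and 9.14 in old PBS, without overlap, and at 14.7, 9.46 and 10.8 in old rMETRNL. Its log2 fold change was -0.49 ± 0.18 (SE), with an unadjusted p of 0.027 and an adjusted p of 0.736 by edgeR, and the adjusted p ran from 0.166 to 1 over the alternatives and left-out libraries. It was -0.55 without old PBS 3 and -0.53 without old PBS 4. It was the 1 member that lay below young PBS without overlap, and 0 lay above, beside 5.25% of genes lower and 5.28% higher among all those tested.

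Cox4i2 stood at 4.47, 3.95 and 3.22 FPKM in young PBS and at 1.97, 2.05 and 3.44 in old PBS, from 23 to 61 counts per library, with a log2 fold change of -0.65 ± 0.34 (SE) that was -0.52 without old PBS 3 and -0.94 without old PBS 4. Atp5k, the e subunit of ATP synthase, stood at 193, 131 and 107 FPKM in young PBS and at 83.6, 68.4 and 185 in old PBS, with a log2 fold change of -0.36 ± 0.38 that was -0.11 without old PBS 3 and -0.92 without old PBS 4. For both genes the groups overlapped through old PBS 4. Cox6b2 had 2, 1 and 10 counts in young PBS, 2, 14 and 17 in old PBS and 20, 18 and 11 in old rMETRNL, so its log2 fold change of 1.28 ± 0.92, which was 0.67 without old PBS 4 and 1.28 without old PBS 3, rests on few reads. Atp5s stood at 6.46, 4.74 and 4.18 FPKM in young PBS and at 8.26, 4.23 and 11.7 in old PBS, a log2 fold change of 0.65 ± 0.35 that was 0.96 without old PBS 3 and 0.28 without old PBS 4. Atp5l, the g subunit of ATP synthase, stood at 30.3, 25.1 and 22.5 FPKM in young PBS and at 34.1, 19.8 and 47 in old PBS, a log2 fold change of 0.37 ± 0.30 that was 0.64 without old PBS 3 and 0.05 without old PBS 4.

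The comparison of old rMETRNL with old PBS asks what the injections changed in old muscle. By edgeR 17 of 15682 genes (0.108%) passed the adjusted threshold and 0 of 85 members did, and DESeq2's Wald test also called 0. At an unadjusted p under 0.05 there were 0 members by edgeR, beside 8.07% of all genes tested. DESeq2 gave 1 member, beside 1747 of 28995 genes. These counts by edgeR were 21 members without old PBS 3, beside 4410 of 15981 genes, and 11 without old PBS 4, beside 1226 of 16111. The median log2 fold change of the members was -0.12 with a median SE of 0.30, beside -0.01 for all genes, with 18 members positive and 67 negative. By complex the medians were -0.16 for complex I, -0.16 for complex II, -0.04 for complex III, -0.04 for complex IV and -0.11 for complex V.

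With libraries left out one at a time, the sign of this median turned only without old PBS 4. Without old PBS 4 the members' median was 0.23, with 82 positive and 3 negative, and without old PBS 3 it was -0.34, with 5 positive and 80 negative. The medians of complexes I to V were 0.22, 0.16, 0.35, 0.31 and 0.17 without old PBS 4, and -0.37, -0.38, -0.24, -0.30 and -0.36 without old PBS 3. Without old PBS 3, 1 member passed the adjusted threshold, Atp5s, at a log2 fold change of -1.06 ± 0.23 (SE) and an adjusted p of 0.0223 by edgeR, in a fit that called 604 genes higher and 956 lower against 0 and 17 with all libraries.

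Atp5s stood at 4.02, 4.3 and 6.02 FPKM in old rMETRNL, beside 4.18 to 6.46 in young PBS and 4.23 to 11.7 in old PBS. With all libraries its log2 fold change against old PBS was -0.75 ± 0.35 (SE), the largest fall, with an adjusted p of 0.642 by edgeR, and without old PBS 4 it was -0.39. Ndufa3, an accessory subunit of complex I, stood at 115, 87.9 and 67.2 FPKM in young PBS, at 74.4, 47.2 and 168 in old PBS and at 76.3, 71.2 and 68.3 in old rMETRNL, a log2 fold change of -0.42 ± 0.39 that was -0.75 without old PBS 3 and 0.23 without old PBS 4. Ndufb5, another accessory subunit, stood at 46.1, 40.1 and 32.8 FPKM in young PBS, at 45.1, 25.1 and 70.9 in old PBS and at 33.4, 31.5 and 43.2 in old rMETRNL, with -0.39 ± 0.34 that was -0.69 without old PBS 3 and 0.02 without old PBS 4. The direction of both genes therefore rested on old PBS 4.

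The largest positive values were in Cox6b2 (0.48 ± 0.65, SE), Ndufa4l2 (0.42 ± 0.22) and Cox4i2 (0.31 ± 0.42). Without old PBS 3 these were 0.48, 0.48 and 0.18, and without old PBS 4 they were 1.08, 0.45 and 0.59. Ndufa4l2 was the 1 member whose old rMETRNL libraries all lay above those of old PBS, by 9.46 against 9.27 FPKM at the nearest, and 0 were lower, beside 6.95% of genes higher and 5.69% lower among all those tested. Its adjusted p was 0.668 by edgeR. Since both comparisons use the same old PBS libraries, its value there enters both.

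**Figure D4:**
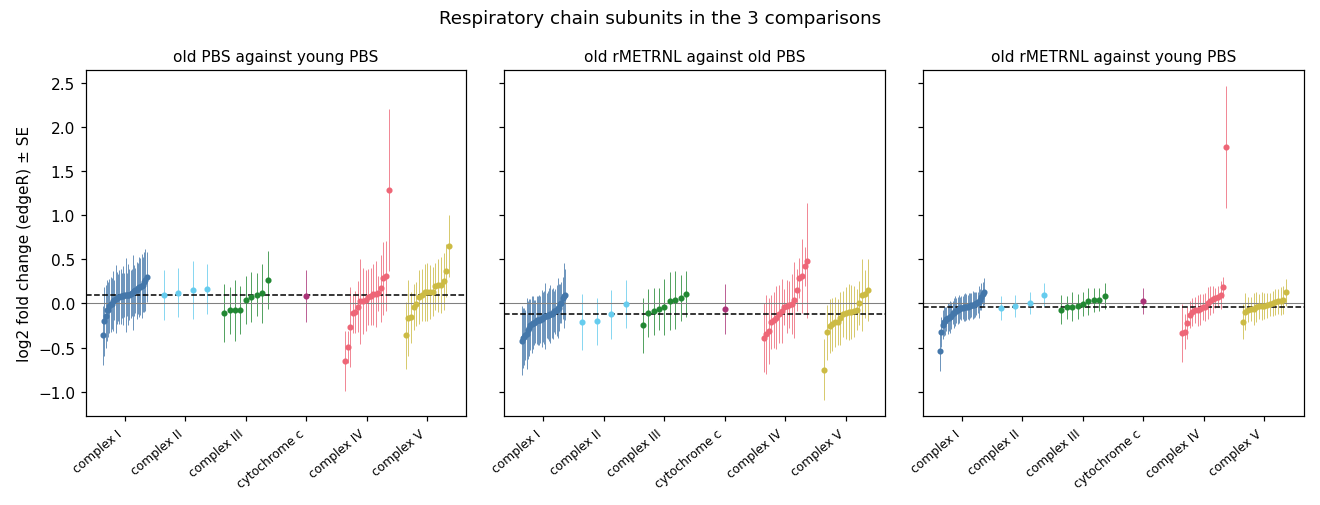
Log2 fold change by edgeR of each of the 85 members with its SE, sorted within complex, in the 3 comparisons; the dashed line is the members' median (0.09, -0.12 and -0.04). Most error bars cross 0, and they are narrower in the comparison of old rMETRNL with young PBS, which leaves out the old PBS libraries.

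Old rMETRNL and young PBS are compared without the old PBS libraries. By edgeR 0 of 15396 genes (0%) passed the adjusted threshold and DESeq2 also called 0 genes. At an unadjusted p under 0.05 there were 2 members, Cox6b2 and Ndufb2, by edgeR, beside 371 genes or 2.41% of all those tested. DESeq2 gave 2 members, beside 355 of 28282 genes. With libraries left out one at a time the count by edgeR ran from 0 members to 8. The 0 came without old rMETRNL 2, beside 298 of 15803 genes, and the 8 without young PBS 3, beside 800 of 15823. The median log2 fold change of the members was -0.04 with a median SE of 0.15, beside 0.00 for all genes, with 28 positive and 57 negative. Left-out libraries moved it from -0.14, without young PBS 3, to 0.11, without young PBS 1. Members of complex II and complex III lay between -0.07 and 0.10 in this comparison.

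Ndufb2 stood at 3.55, 2.19 and 1.93 FPKM in young PBS, at 1.8, 1.31 and 2.9 in old PBS and at 1.92, 1.55 and 1.79 in old rMETRNL. Its log2 fold change against young PBS was -0.54 ± 0.22 (SE), with an unadjusted p of 0.0295 and an adjusted p of 1 by edgeR, and it was -0.24 without young PBS 1. It was the 1 member lower without overlap and 0 were higher, beside 2.95% of genes lower and 3.92% higher. Cox6b2 had a log2 fold change of 1.77 ± 0.70 at an unadjusted p of 0.0265 and an adjusted p of 1 by edgeR, on the few counts given above. Ndufa3 at -0.32 ± 0.17 and Cox4i2 at -0.34 ± 0.33 were the next largest falls, and Cox6a1 at 0.18 ± 0.12 and Ndufs5, an accessory subunit of complex I at 0.13 ± 0.15, the next largest rises.

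For core subunits the intervals show which changes remain compatible with these libraries. In old rMETRNL against young PBS the log2 fold change of Sdha was 0.00 with a 95% interval from -0.28 to 0.28 and that of Atp5b 0.01 from -0.31 to 0.34. In old PBS against young PBS the same genes had 0.12 from -0.51 to 0.76 and 0.10 from -0.57 to 0.77. The interval was about as wide for Cox4i1, at 0.07 from -0.66 to 0.80. These intervals use an SE derived from edgeR's fold change and F statistic, with its degrees of freedom. Each of them includes 0 and changes in both directions.

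Other mitochondrial genes were read beside the members. Of 46 assembly factors, which build the complexes without staying in them, 44 were tested and 0 passed the adjusted threshold by edgeR in each of the 3 comparisons, with 0 at an unadjusted p under 0.05. Their highest and lowest values in old PBS against young PBS were Ndufaf5 at 0.41 ± 0.39 (SE) and Uqcc3 at -0.24 ± 0.24. In old rMETRNL against old PBS these were Cox20 at 0.45 ± 0.41 and Ndufaf5 at -0.45 ± 0.37, and against young PBS Cox20 at 0.38 ± 0.33 and Ndufaf8 at -0.25 ± 0.17. The assembly factors were highest in old PBS 4 in 32 of 44 and lowest in old PBS 3 in 22 of 44, beside 78 and 73 of the 85 members. Without old PBS 3, 8 had an unadjusted p under 0.05 in old PBS against young PBS, beside 3322 of 15884 genes. In old rMETRNL against old PBS 12 did, beside 4410 of 15981 genes. In the latter 3 passed, Ndufaf5, Ttc19 and Uqcc1, in a fit that called 604 genes higher and 956 lower. Without old PBS 4 the assembly factors under 0.05 numbered 2 and 5, beside 871 of 16128 and 1226 of 16111 genes, and 0 passed.

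Of 17 regulators of mitochondrial genes 0 passed in any comparison. At an unadjusted p under 0.05 by edgeR, 1 of them, Gabpb1, a partner of the ETS factor GABPA, differed in old rMETRNL from both other groups. The shares of all genes tested were 8.07% against old PBS and 2.41% against young PBS. Regulators higher in old rMETRNL without overlap numbered 2 against old PBS and 1 against young PBS, beside 6.95 and 3.92% of genes. Those lower numbered 0 and 1, beside 5.69 and 2.95%. Gabpb1 stood at 12.5, 11.7 and 14.4 CPM in young PBS, at 11.3, 13 and 12 in old PBS and at 16.9, 17.4 and 14.9 in old rMETRNL, higher without overlap, with log2 fold changes of 0.43 ± 0.17 (SE) against old PBS and 0.35 ± 0.14 against young PBS. Its adjusted p was 0.55 and 1 by edgeR. Ppargc1a, the coactivator that drives mitochondrial gene expression, stood at 38.4, 37.6 and 34.5 CPM in young PBS, at 51.1, 31.2 and 42.2 in old PBS and at 32.9, 30.7 and 38.3 in old rMETRNL. Unlike the members, it was highest in old PBS 2. Without old PBS 3, Esrrg passed in old PBS against young PBS, and Esrrg and Tfb2m, a mitochondrial transcription factor, in old rMETRNL against old PBS. These fits called 289 genes higher and 112 lower of 15884, and 604 higher and 956 lower of 15981. Without old PBS 4 none of the 17 passed. In these 2 comparisons, regulators at an unadjusted p under 0.05 by edgeR numbered 2 and 5 without old PBS 3, beside 3322 of 15884 and 4410 of 15981 genes. Without old PBS 4 they numbered 0 and 1, beside 871 of 16128 and 1226 of 16111.

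Esrrg, an estrogen-related receptor, stood at 18.9, 20.5 and 14.5 CPM in young PBS, at 32, 10.8 and 33.4 in old PBS and at 12.3, 14.2 and 19.2 in old rMETRNL, and had the highest value among the regulators in old PBS against young PBS (0.49 ± 0.38, SE) and the lowest in old rMETRNL against old PBS (-0.74 ± 0.39) and against young PBS (-0.24 ± 0.19). Ppargc1b had the lowest value in old PBS against young PBS, at -0.25 ± 0.22. The message of Nrf1 itself lay between 13.6 and 19.1 CPM in the 9 libraries. Members with the NRF1 letters in their promoter had a median deviation of 0.60 in old PBS 4 and -0.45 in old PBS 3, and those without them 0.69 and -0.50.

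The 13 protein genes of the mitochondrial genome, which encode the remaining core subunits, spread more than the nuclear members and in a different order. They summed to 79221, 70006 and 55354 CPM in young PBS, to 114812, 47509 and 149089 in old PBS and to 50273, 52185 and 76486 in old rMETRNL. Relative to the nuclear members the sum was highest in old PBS 2, at 4.47, followed by old PBS 4 at 3.78, and between 1.87 and 3.01 in the other 7 libraries. Old PBS 2, which was near the middle for the nuclear members, was thus next to the highest for the mitochondrial genome.

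By edgeR 0 of these 13 genes passed in any comparison, all 13 had a positive value in old PBS against young PBS (median 0.60, log2) and a negative one in old rMETRNL against old PBS (median -0.88). At an unadjusted p under 0.05 by edgeR there were 4, mt-Nd3, mt-Nd4l, mt-Co2 and mt-Atp6, in the latter comparison, beside 8.07% of all genes tested. In the other comparisons there were 0. mt-Nd4l had the highest and mt-Co2 the lowest value in old PBS against young PBS, at 0.89 ± 0.44 (SE) and 0.56 ± 0.39, and in old rMETRNL against old PBS mt-Co3 had the highest, -0.20 ± 0.55, and mt-Nd4l the lowest, -1.10 ± 0.45. Without old PBS 3 the medians were 0.95 and -1.24, and 4 of the 13 genes passed in old PBS against young PBS and 10 in old rMETRNL against old PBS. Over all genes, these fits called 289 higher and 112 lower of 15884, and 604 higher and 956 lower of 15981. Without old PBS 4 the medians were 0.27 and -0.48 and 0 passed. Those of the 13 at an unadjusted p under 0.05 by edgeR numbered 13 and 12 without old PBS 3, beside 3322 of 15884 and 4410 of 15981 genes. Without old PBS 4 they numbered 0 and 0, beside 871 of 16128 and 1226 of 16111. Against young PBS, mt-Co3 stood at 0.56 ± 0.40 and mt-Nd4 at -0.36 ± 0.21.

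Among 18 other mitochondrial proteins, such as citrate synthase, porins and protein import channels, 0 passed by edgeR in any comparison and 0 had an unadjusted p under 0.05. Chchd3, of the inner membrane junctions, was highest in old PBS against young PBS at 0.39 ± 0.32 (SE) and lowest in old rMETRNL against old PBS at -0.56 ± 0.32 and against young PBS at -0.16 ± 0.15. Slc25a5, an ADP/ATP carrier, was at the other end each time, at -0.17 ± 0.23, 0.28 ± 0.23 and 0.11 ± 0.12. Without old PBS 3, Chchd3 and Vdac3, a porin, passed in old rMETRNL against old PBS, in a fit that called 604 higher and 956 lower of 15981 genes. In that fit 9 of the 18 had an unadjusted p under 0.05 by edgeR, beside 4410 genes. In old PBS against young PBS without old PBS 3, 7 did, beside 3322 of 15884 genes, and 0 passed. Without old PBS 3 the medians were 0.32 in old PBS against young PBS and -0.39 in old rMETRNL against old PBS. Without old PBS 4, 0 passed and the medians were -0.0678 and 0.0386, against 0.13 and -0.21 with all libraries. Their summed CPM relative to that of the members stayed between 0.267 and 0.319 in the 9 libraries, a narrow band beside the 2.17-fold range of the members.

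**Figure D5:**
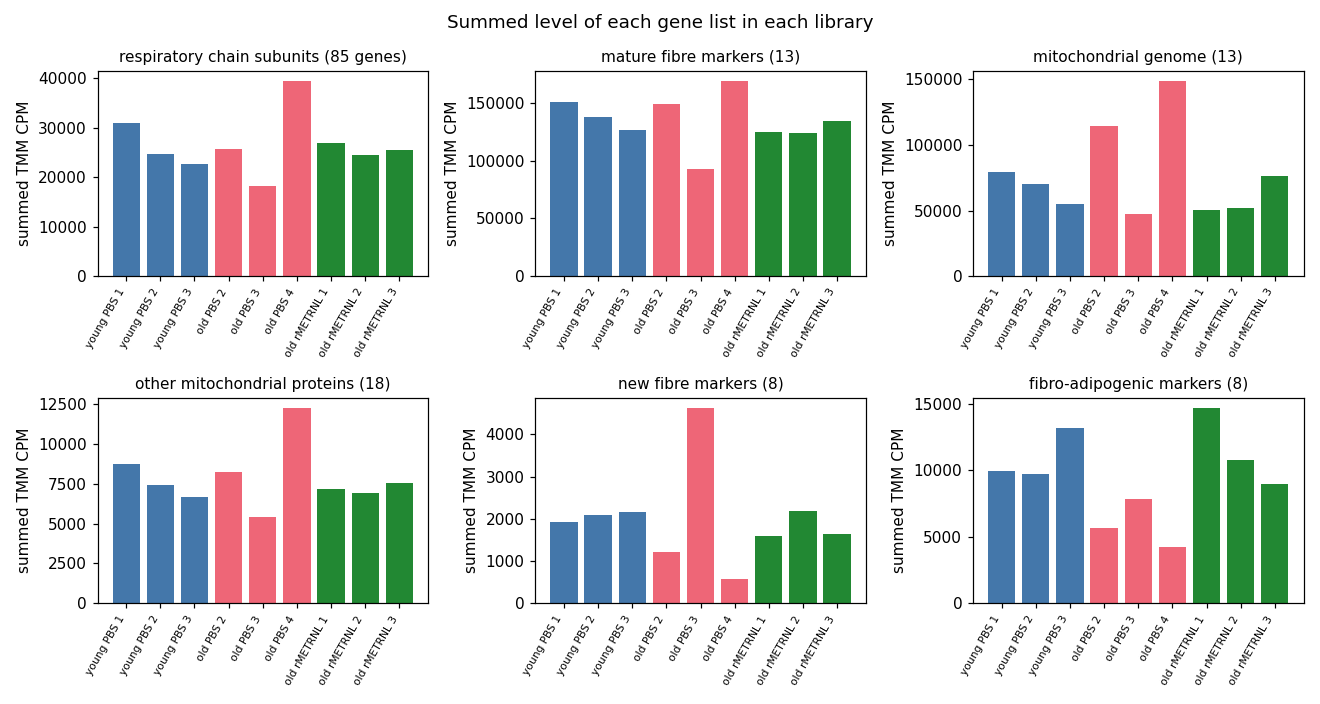
Summed TMM-scaled CPM of 6 gene lists in each library, with bars from 0, young PBS in blue, old PBS in red and old rMETRNL in green. The members and the mature fibre markers are both highest in old PBS 4 and lowest in old PBS 3, and the new fibre markers show the opposite order there.

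Mature fibre markers had their highest and lowest sums in the same libraries as the members, and the sums given below for new fibres, fibro-adipogenic progenitors, macrophages and endothelium did not. Mature fibre markers summed to 150722, 137736 and 126178 CPM in young PBS, to 149434, 92900 and 169378 in old PBS and to 124507, 124320 and 134431 in old rMETRNL. The ratio of the members' sum to theirs was 0.205, 0.179 and 0.179 in young PBS, 0.172, 0.196 and 0.233 in old PBS and 0.216, 0.197 and 0.189 in old rMETRNL, a 1.36-fold range. In bulk tissue a smaller number of fibres and less RNA of a kind per fibre cannot be told apart. With the members' levels divided by the summed fibre markers, a scaling chosen after seeing the data, the median log2 differences were 0.08, 0.02 and 0.09 for old PBS against young PBS, old rMETRNL against old PBS and old rMETRNL against young PBS, so the sign of the last 2 was opposite to that on the CPM scale.

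All 8 new fibre markers were lowest in old PBS 4 and 6 of 8 were highest in old PBS 3. Markers of fibro-adipogenic progenitors, the connective tissue cells of muscle, summed to 9953, 9701 and 13170 CPM in young PBS, to 5670, 7819 and 4262 in old PBS and to 14717, 10764 and 8968 in old rMETRNL. The old PBS sums lay below those of both other groups, but sums weigh the most abundant markers most. Of the 8 markers, 5 were lower and 3 higher in old PBS against young PBS by edgeR, none of them passing. In old rMETRNL against old PBS all 8 were higher, again with none passing. Macrophage markers summed to 1548 to 1894 CPM in young PBS, 1178 to 1598 in old PBS and 1687 to 2005 in old rMETRNL, and endothelial markers to 338 to 395, 231 to 339.5 and 329 to 420.1. The part of these cells in the members' levels was not tested.

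Within the members, the relation of the deviation to exon length differed between libraries. Spearman's rho over the 85 members, a description across genes that share their libraries, was 0.46 in old PBS 2, -0.43 in young PBS 1, -0.42 in old rMETRNL 1 and between -0.26 and 0.17 in the other 6. Over all genes with a mean of at least 1 CPM it was 0.26, -0.36 and -0.10 in these 3 libraries and -0.30 in old PBS 4. In old PBS 2 the 21 members with under 1000 bases of exon had a median deviation of -0.34 and the 64 longer members one of -0.01. In young PBS 1 these medians were 0.34 and 0.27, in old rMETRNL 1 0.18 and 0.03, in old PBS 3 -0.47 and -0.49, and in old PBS 4 0.71 and 0.65. The short members Ndufa1 (84.8 FPKM, against 94.4 in old PBS 3) and Uqcr11 (173 against 186) were lowest in old PBS 2. The part of transcript length in the members' levels was not tested.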

How the data were processed

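The authors deposited raw counts per Ensembl gene for the 9 libraries, not normalized and with replicates apart. The paper's methods name the NEBNext Ultra kit, paired-end sequencing on a NovaSeq instrument and DESeq2. The submitters' processing notes name STAR, featureCounts and mm9, while versions, annotation and strand setting are not given in the sources used here. Identifiers were matched to an annotation of GRCm38 (54409 of 54532), which gave symbols, coordinates and exon lengths. Without a known strand setting, overlapping genes cannot be told apart.

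Groups were compared in pairs with edgeR 4.0.16 in R 4.3.3 (filterByExpr, TMM, quasi-likelihood test, Benjamini-Hochberg over all genes tested, threshold 0.05). For FPKM, TMM was run over the 9 libraries together. DESeq2 1.42.0 served as a second test. Isoform ratios were compared by exact permutation. In simulated counts for old PBS against young PBS, edgeR recovered 162 of 200 genes changed by 2 (log2), with 11 false calls. DESeq2 recovered 171 of the 200, with 45 false calls. Genes were drawn independently of each other, so levels that move together across libraries were not simulated. The members' log2 fold changes in this comparison ran from -0.65 to 1.28, and recovery of changes of that size was not tested. Alternatives were other size factors, no filter, a minimum of 10 counts per library, DESeq2, 1 joint fit, a block for the replicate number, and leaving out each library.

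Named genes are the isoform pairs, tissue-restricted members, core subunits, the 3 largest rises and falls per comparison, the leading member of each complex and the extremes of the other lists. Members and lists were chosen with earlier results of these data known. No columns of other samples were present. The values of 1 member are not reported here.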

Additional observations from a re-analysis of the deposited data

How the results depend on the processing

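The members' medians took the opposite sign in 9 of 39 recomputed values over the 3 comparisons, and the isoform log2 ratios in 6 of 72. The labels do not say whether libraries of the same number are paired. The correlation of same-numbered libraries' deviations from their group means ran from -0.316 to 0.412, beside -0.44 to 0.377 for libraries of different number. With 3 libraries per group these correlations cannot settle a pairing. With the replicate number as a block, in which libraries whose number has no partner carry no weight, 0 members were called in each comparison, the median of the members was -0.13 in old PBS against young PBS and 0.22 in old rMETRNL against old PBS, and in the latter Cox8b over Cox8a was 0.0403, Ndufa3 0.23 and Ndufb5 0.13 on the log2 scale, all opposite to the values without the block. By construction old PBS 4 carries no weight there.

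With libraries left out one at a time, the members' median in old rMETRNL against old PBS ran from -0.34, without old PBS 3, to 0.23, without old PBS 4, and the number of members called from 0 to 1. In old PBS against young PBS it ran from -0.27 to 0.31, and in old rMETRNL against young PBS from -0.14 to 0.11. Cox6a2 over Cox6a1 ran from -0.12 to 0.93 in old PBS against young PBS. Cox8b over Cox8a ran from -0.42 to 0.68 there, and from -1.03 to 0.0748 in old rMETRNL against old PBS. In the latter comparison Ndufa3 ran from -0.75 to 0.23, Ndufb5 from -0.69 to 0.0219 and Cox4i2 from -0.0498, without old rMETRNL 1, to 0.59. Over all genes, calls in old PBS against young PBS numbered 10 higher and 0 lower as reported, 291 and 63 without the filter, 238 and 27 by DESeq2, 60 and 3 with all 9 libraries in 1 fit, 3 and 0 with at least 10 counts in every library, and 289 and 112 without old PBS 3. For old rMETRNL against old PBS, 0 higher and 17 lower became 157 and 583, 43 and 311, 3 and 68, 0 and 1, and 604 and 956. Old rMETRNL against young PBS gave 0 calls, except 40 and 92 without the filter and 0 and 1 without old rMETRNL 3.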
